A study of Mus musculus with 5 samples.

Results

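The genes of de novo fatty acid synthesis were followed as 10 members: the enzymes Acly, Acaca, Acacb, Fasn, Elovl6, Scd1 and Scd2 and the regulators Srebf1, Mlxipl and Thrsp. They were chosen by name as enzymes and regulators of this pathway, and each symbol matched 1 row of the deposited table of 78334 Ensembl genes. All 10 passed the low-count filter that left 29855 genes for testing. The series holds 5 RNA-seq libraries, all labelled visceral adipose tissue and all from male C57BL/6 mice. The 2 curcumin-treated libraries came from mice injected intraperitoneally at the age of 2 days with 70 mg/kg streptozotocin, which kills pancreatic beta cells. These mice ate a high-fat diet (60% of kilocalories as fat) for 8 weeks, begun at 3 weeks of age, and from the age of 11 weeks received the turmeric polyphenol curcumin, 50 mg/kg by daily gavage over 28 days. The 2 diabetes libraries came from mice with the same streptozotocin and diet that received the vehicle, and the 1 control library is of standard chow with the vehicle. Whether a library is 1 animal or a pool is not given in the sources used here, and p-values therefore reflect spread among libraries that may be technical.

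Fatty acids are built in the cytosol from acetyl-CoA. Citrate exported from mitochondria is split by ATP citrate lyase, acetyl-CoA carboxylase turns the acetyl-CoA into malonyl-CoA, and fatty acid synthase joins these units into palmitate with electrons from NADPH. ELOVL6 then lengthens palmitate to stearate, and the stearoyl-CoA desaturases introduce the double bond that gives oleate. Transcription is driven by SREBP-1, which responds to insulin, and by ChREBP, which responds to glucose. Liver and fat are the classical sites of the pathway, and a high-fat diet is known to lower its activity in both.

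The libraries stood apart by tissue markers within each group. Total counts ran from 25378046 to 42422890. Adipocyte markers (15 genes, such as Adipoq and Plin1) took 0.582% of the counts of curcumin-treated 1 and 0.0304% of curcumin-treated 2, 0.0240% of diabetes 1 and 5.28% of diabetes 2, and 0.0816% of control 1. All 15 were detected in every library except diabetes 1, where Pparg and Retn were at 0. Epididymal epithelium markers (17 genes matched, such as Gpx5 and Lcn8) took 0.602% of curcumin-treated 1 and 11.5% of curcumin-treated 2, 7.60% of diabetes 1 and 3.55e-05% of diabetes 2, and 7.86% of control 1. In diabetes 2, 14 of these 17 genes were at 0. In curcumin-treated 1 a single gene, Crisp1, gave 165926 of the 167393 counts of the list, at 5965 CPM against 334 CPM in curcumin-treated 2. The median level over the 17 genes was 1.98 and 2140 CPM in the curcumin-treated libraries, 2273 and 0 CPM in diabetes, and 2102 CPM in control 1. Smooth muscle markers (10 genes) took 4.94% of curcumin-treated 1 and 0.235% of curcumin-treated 2, 0.152% of diabetes 1 and 0.112% of diabetes 2, and 0.271% of control 1. Skeletal muscle markers (8 genes) took 0.137% and 0.0111% of the curcumin-treated libraries, 0.000853% and 0.00414% of the diabetic ones, and 0.00134% of control 1. Acta1 and Ckm gave 29736 and 8191 of the 38189 counts in curcumin-treated 1. In curcumin-treated 2 Acta1 gave 3762 of 4688 counts and Ckm 6, and in diabetes 2 Acta1 gave 964 of 1050 and Ckm 1. They gave less of the sum in diabetes 1, with 57 and 18 of 217, and in control 1, with 105 and 17 of 361. The median level over the 8 genes was 1.64 and 4.43 CPM with curcumin, 0.884 and 0.552 CPM in diabetes, and 1.11 CPM in control 1. Macrophage markers (10 genes) took 0.311% of diabetes 2 and 0.0186% to 0.0552% of the other 4 libraries. Hepatocyte markers (8 genes) took at most 0.0159%, in diabetes 2. In bulk tissue, fewer cells of a type and less RNA per cell cannot be told apart. The part of tissue composition in the results that follow was not tested.

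**Figure D1:**
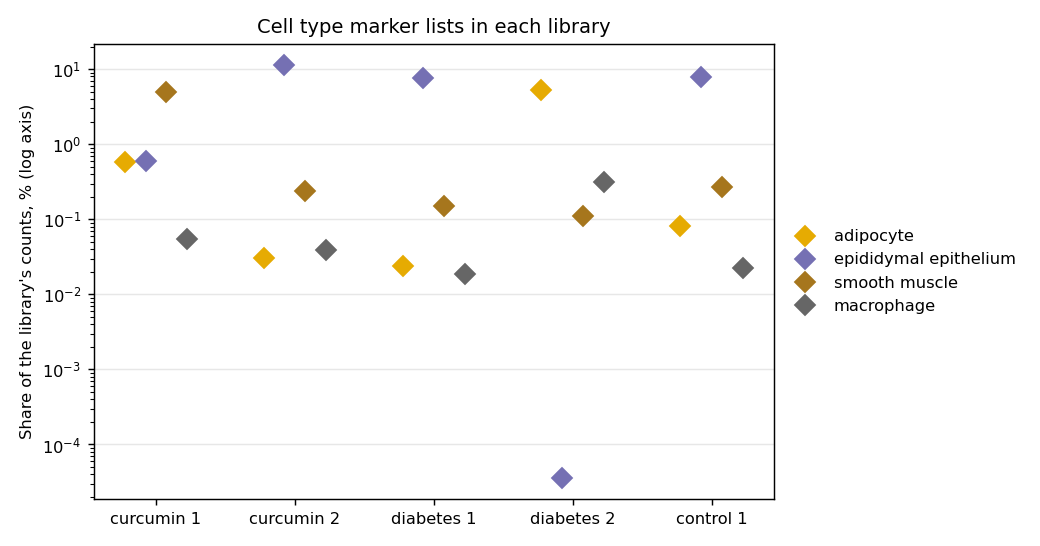
Share of each library's counts, in percent on a log axis, taken by marker lists of adipocytes, epididymal epithelium, smooth muscle and macrophages. Adipocyte markers peak at 5.28% in diabetes 2, and epididymal markers take 7.60% to 11.5% of curcumin-treated 2, diabetes 1 and control 1.

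Together the members took 0.232% of the counts of curcumin-treated 1 and 0.202% of curcumin-treated 2, 0.305% of diabetes 1 and 2.76% of diabetes 2, and 0.323% of control 1. The excess of diabetes 2 was mostly a single transcript, since Scd1 held 85.9% of its member counts. With Scd1 set aside, the sum was 1245 and 1859 CPM (counts scaled to a common library total) in the curcumin-treated libraries, 2831 and 3883 CPM in diabetes, and 2832 CPM in control 1. Levels of different genes are compared per kilobase of the longest annotated transcript. On that scale Scd1 led the members in curcumin-treated 1 and diabetes 2, Scd2 led in curcumin-treated 2 and control 1, and Acly led in diabetes 1. Acacb was the lowest member in every library but diabetes 2, where Elovl6 was.

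Acly (ENSMUSG00000020917), the ATP citrate lyase that supplies cytosolic acetyl-CoA, was at 180 and 284 CPM in the curcumin-treated libraries, at 1005 and 269 CPM in diabetes, and at 691 CPM in control 1. The curcumin-treated libraries lay on both sides of diabetes 2, and diabetes 1 and control 1 were the high libraries. Acaca (ENSMUSG00000020532), the cytosolic carboxylase ACC1 that makes malonyl-CoA for synthesis, was at 36.1 and 34.3 CPM in the curcumin-treated libraries, at 29.1 and 100 CPM in the diabetes libraries, and at 45.1 CPM in control 1. Diabetes 2 alone stood out, and the other 4 libraries lay close together. Acacb (ENSMUSG00000042010), the mitochondrial carboxylase ACC2 whose malonyl-CoA restrains fatty acid entry into mitochondria, was at 10.7 and 2.76 CPM in the curcumin-treated libraries, at 6.72 and 69.1 CPM in the diabetes libraries, and at 8.92 CPM in control 1. Its 95% Poisson interval in curcumin-treated 1, 9.57 to 12.0 CPM, overlapped that of control 1, 7.83 to 10.1 CPM.

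Fasn (ENSMUSG00000025153), the fatty acid synthase, was at 242 and 178 CPM in the curcumin-treated libraries, at 336 and 1904 CPM in the diabetes libraries, and at 363 CPM in control 1. Both curcumin-treated libraries lay below both diabetic ones. The 2 diabetic libraries differed from each other by 5.67 times, and diabetes 1 lay next to control 1. Thrsp (ENSMUSG00000035686), or Spot 14, a lipogenic protein induced by thyroid hormone and carbohydrate, was at 52.3 and 5.00 CPM in the curcumin-treated libraries, at 3.18 and 297 CPM in the diabetes libraries, and at 20.4 CPM in control 1. Diabetes 1 was its lowest library and diabetes 2 its highest, 93.4 times apart.

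The desaturases and the elongase differed most in how they varied. Scd1 (ENSMUSG00000037071), the main desaturase of adipocytes, was at 1078 and 161 CPM in the curcumin-treated libraries, at 217 and 23746 CPM in the diabetes libraries, and at 400 CPM in control 1. It spanned 147 times from lowest to highest, the widest range of the members. Scd2 (ENSMUSG00000025203), its paralog, which is prominent in brain and in neonatal tissues, was at 501 and 863 CPM in the curcumin-treated libraries, at 886 and 984 CPM in diabetes, and at 987 CPM in control 1. That is a range of 1.97 times, the narrowest of the members, and the Poisson intervals of diabetes 2 (972 to 996 CPM) and control 1 (975 to 998 CPM) overlapped. Elovl6 (ENSMUSG00000041220), the elongase that turns palmitate into stearate, was at 42.8 and 224 CPM in the curcumin-treated libraries, at 261 and 31.2 CPM in the diabetes libraries, and at 236 CPM in control 1. Its lowest level was thus in the library with the most Scd1 and Fasn.

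Srebf1 (ENSMUSG00000020538), which encodes SREBP-1, was at 174 and 242 CPM in the curcumin-treated libraries, at 272 and 176 CPM in diabetes, and at 426 CPM in control 1. The counts do not separate its SREBP-1a and SREBP-1c transcripts. Mlxipl (ENSMUSG00000005373), which encodes ChREBP, was at 5.90 and 25.3 CPM in the curcumin-treated libraries, at 32.3 and 51.1 CPM in diabetes, and at 55.8 CPM in control 1. Srebf1 was highest in control 1. So was Mlxipl, but its Poisson intervals in diabetes 2 (48.4 to 54.0 CPM) and control 1 (53.0 to 58.6 CPM) overlapped, and with TMM scaling, which corrects library totals for composition, diabetes 2 was the higher (56.2 against 51.6 CPM). Diabetes 2, which held the most Fasn, Scd1, Acaca, Acacb and Thrsp, held less Srebf1 than 3 of the other 4 libraries and overlapped curcumin-treated 1.

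**Figure D2:**
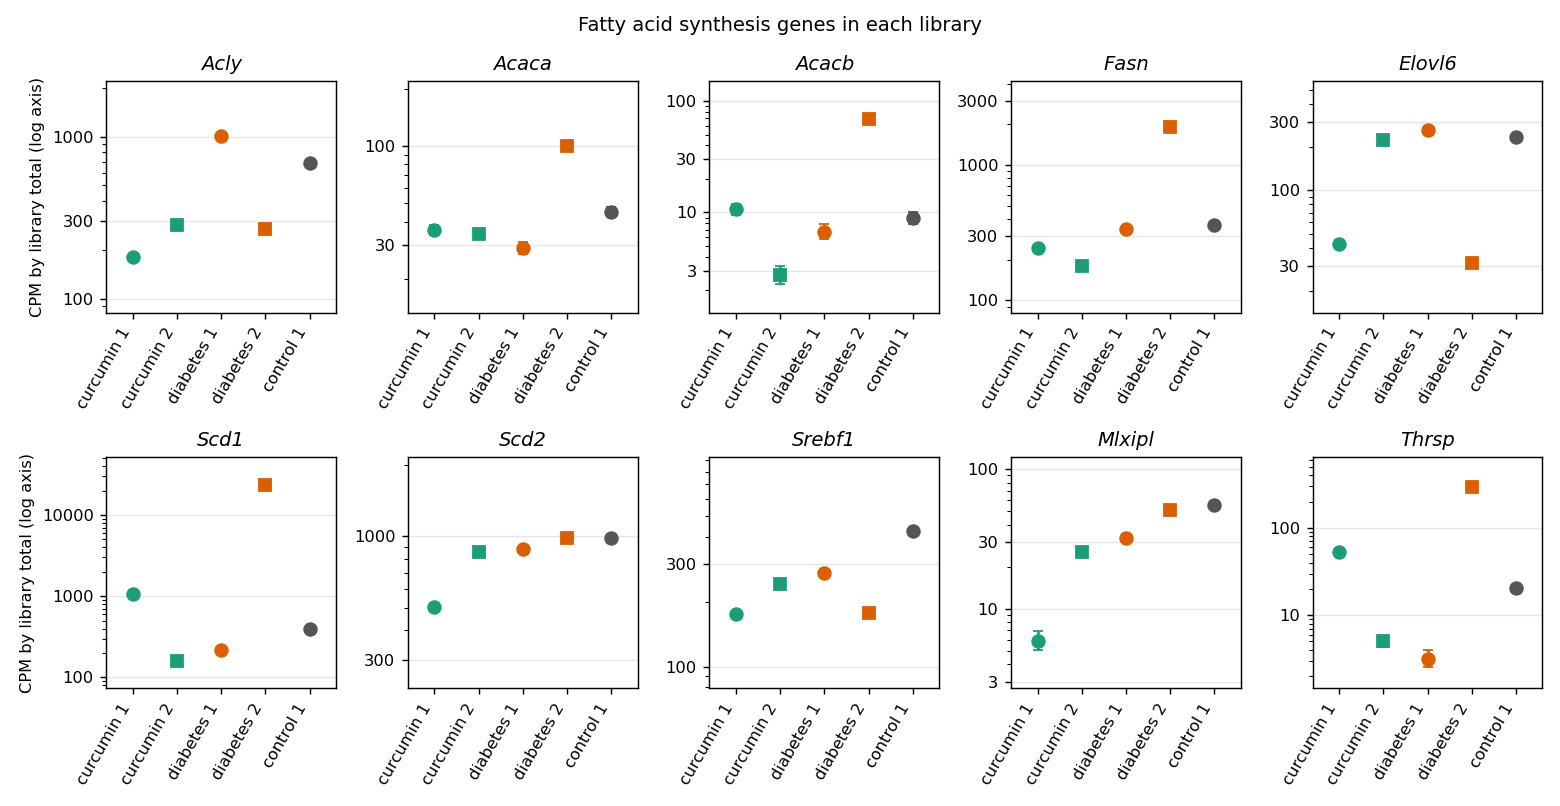
Level in CPM on a log axis for each member in the 5 libraries, green for curcumin-treated, orange for diabetes and grey for control, with circles for replicate 1 and squares for replicate 2. Bars are 95% Poisson intervals, mostly smaller than the symbols, and Scd1 reaches 23746 CPM in diabetes 2 while Elovl6 is lowest there at 31.2 CPM.

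Acly, Elovl6 and Srebf1 were higher in curcumin-treated 2, diabetes 1 and control 1, the 3 libraries with 7.60% or more epididymal markers, than in curcumin-treated 1 and diabetes 2. Scd1, Acacb and Thrsp were lower in those 3 libraries than in the other 2. Of all genes tested, 18.4% lay higher and 19.2% lower in those 3 libraries without overlap, so these 3 and 3 of 10 members are described beside a large background. Fasn, Acaca, Scd2 and Mlxipl overlapped.

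Ratios of members within a library do not depend on the scaling between libraries. Per kilobase, Scd1 stood to Scd2 at 2.43 in curcumin-treated 1 and 0.211 in curcumin-treated 2, at 0.276 in diabetes 1 and 27.2 in diabetes 2, and at 0.458 in control 1. Scd1 was thus the larger transcript of this pair in 2 libraries, 1 of each diabetic group, and Scd2 in the other 3. No 150-base stretch of the longest Scd1 transcript occurs in a transcript of Scd2, and 1.66% of its 75-base stretches do.

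Acaca stood to Acacb at 3.10 and 11.5 per kilobase in the curcumin-treated libraries, at 4.00 in diabetes 1 and 1.34 in diabetes 2, and at 4.68 in control 1. The synthetic isoform was the larger in every library, by the least in diabetes 2. Elovl6 stood to Fasn at 0.299 and 2.12 in the curcumin-treated libraries, at 1.31 in diabetes 1 and 0.0277 in diabetes 2, and at 1.10 in control 1. Acly stood to Fasn at 1.69 and 3.62 with curcumin, at 6.79 in diabetes 1 and 0.321 in diabetes 2, and at 4.33 in control 1. Diabetes 2 was the only library of these 5 with more Fasn than Acly, and it shared with curcumin-treated 1 an excess of Fasn over Elovl6. Between the regulators, Srebf1 stood to Mlxipl at 24.9 and 8.07 with curcumin, at 7.10 and 2.90 in diabetes, and at 6.43 in control 1.

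**Figure D3:**
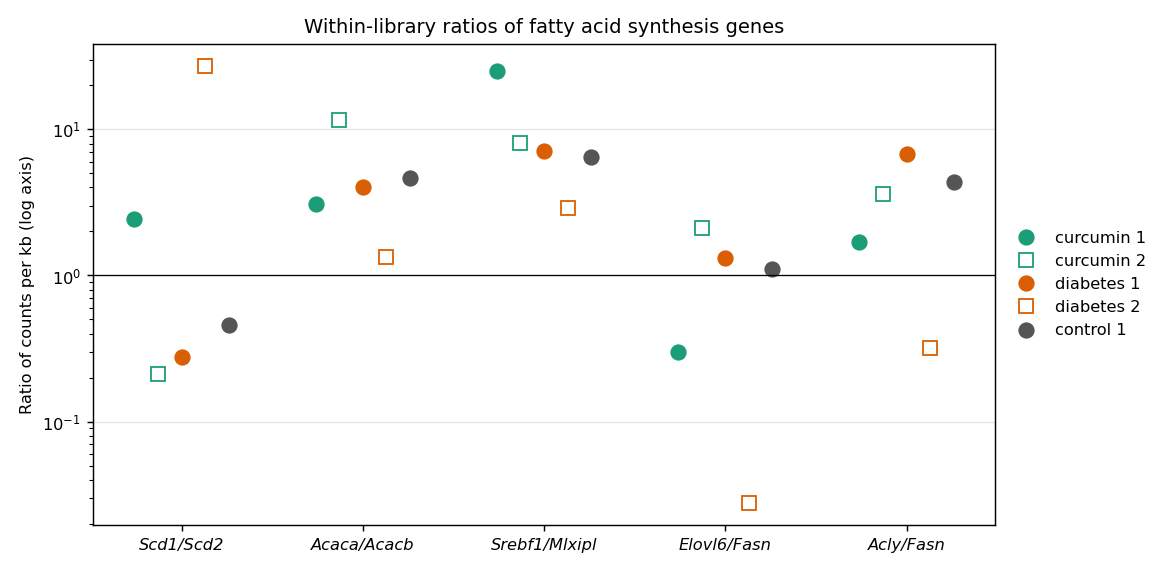
Ratios of counts per kilobase between pairs of members within each library, on a log axis, with a line at equal levels. Green is curcumin-treated, orange diabetes and grey control, filled circles are replicate 1 and open squares replicate 2, and Scd1/Scd2 runs from 0.211 in curcumin-treated 2 to 27.2 in diabetes 2.

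Set against adipocyte markers instead of the library total, the picture of variation turned round. Per 1000 counts of the 15 adipocyte markers, Scd1 had 185 and 530 counts in the curcumin-treated libraries, 903 and 449 in diabetes, and 490 in control 1. That is a range of 4.88 times, where its CPM spanned 147 times. Thrsp had 8.98 and 16.4 counts with curcumin, 13.2 and 5.62 in diabetes, and 25 in control 1, a range of 4.45 times against 93.4 in CPM. Elovl6 had 7.35 and 737 counts with curcumin, 1087 and 0.591 in diabetes, and 289 in control 1, a range of 1840 times against 8.37 in CPM. Acly spanned 820 times on this scale, Srebf1 339 times and Scd2 198 times. Scd1 and Thrsp were the members with the narrowest range against this summed list. The make-up of the sum differed between libraries. In diabetes 1, Pnpla2 gave 1903, Lpl 1352 and Adipoq 34 of its 6117 counts. In diabetes 2 they gave 57785, 375656 and 40867 of 1341126. A range against Adipoq or another single marker can therefore differ from that against the list. Acacb spanned 21.4 times on this scale and 25 times in CPM, and the other members spanned more per adipocyte count than in CPM.

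The promoters of 4 members are shown because their genes differed in where they were high. Fasn and Thrsp were highest in diabetes 2, as were Acaca, Acacb and Scd1. Acly and Elovl6 were higher than in diabetes 2 in each of the 3 libraries with the most epididymal markers, as was Srebf1. The courses of the 4 shown over the 5 libraries were not all opposite. The Pearson r of log2(CPM + 1) was −0.91 for Thrsp with Elovl6, −0.57 for Thrsp with Acly, −0.60 for Fasn with Elovl6 and −0.06 for Fasn with Acly. RefSeq sequences on build GRCm38.p6, 250 bases before to 50 after the start, were at hand for 8 of the 10 members, and not for Scd1 and Scd2. Capitals mark matches on either strand to the CCAAT box (CCAAT, bound by NF-Y) and to the GC box (GGGCGG, bound by Sp1). The sequences lie at chr11:120824498-120824797 on the minus strand (Fasn), chr7:97417501-97417800 on the minus strand (Thrsp), chr11:100527951-100528250 on the minus strand (Acly) and chr3:129532136-129532435 on the plus strand (Elovl6).
Fasn: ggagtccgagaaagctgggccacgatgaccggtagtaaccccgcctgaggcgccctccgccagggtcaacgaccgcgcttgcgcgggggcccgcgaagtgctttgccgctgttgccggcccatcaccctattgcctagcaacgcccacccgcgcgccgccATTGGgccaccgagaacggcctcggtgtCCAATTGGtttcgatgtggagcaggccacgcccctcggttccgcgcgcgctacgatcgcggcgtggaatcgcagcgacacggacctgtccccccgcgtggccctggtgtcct
Thrsp: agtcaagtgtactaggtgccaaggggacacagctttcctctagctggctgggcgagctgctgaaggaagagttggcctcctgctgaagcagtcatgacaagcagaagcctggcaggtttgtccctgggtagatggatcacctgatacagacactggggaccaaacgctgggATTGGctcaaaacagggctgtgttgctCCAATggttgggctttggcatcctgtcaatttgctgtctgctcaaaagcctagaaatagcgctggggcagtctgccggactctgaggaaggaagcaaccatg
Acly: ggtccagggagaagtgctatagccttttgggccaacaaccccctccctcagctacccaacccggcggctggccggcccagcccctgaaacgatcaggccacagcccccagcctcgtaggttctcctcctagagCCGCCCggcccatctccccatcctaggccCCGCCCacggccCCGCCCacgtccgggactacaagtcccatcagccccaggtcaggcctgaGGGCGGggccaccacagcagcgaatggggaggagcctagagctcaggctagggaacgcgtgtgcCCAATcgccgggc
Elovl6: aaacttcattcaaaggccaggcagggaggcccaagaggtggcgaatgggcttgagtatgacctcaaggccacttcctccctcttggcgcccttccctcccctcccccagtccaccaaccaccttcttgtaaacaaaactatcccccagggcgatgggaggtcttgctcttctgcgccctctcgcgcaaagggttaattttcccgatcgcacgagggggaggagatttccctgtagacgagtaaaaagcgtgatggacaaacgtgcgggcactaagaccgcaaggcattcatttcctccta

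The Fasn promoter holds 3 CCAAT boxes, at 90 to 86, 62 to 58 and 59 to 55 bases before the start, the last 2 on opposite strands and overlapping. Thrsp holds 2, at 79 to 75 and 52 to 48 bases before it. Acly holds 4 GC boxes, between 117 and 22 bases before the start, and 1 CCAAT box after it, and Elovl6 holds neither motif. A CCAAT box occurs in 37.4% and a GC box in 35.7% of the 32851 promoters of this length. The sterol element core CACNCCA, found in 18.4% of all promoters, occurs among the members' promoters only in both Mlxipl ones, and the E-box CACGTG, found in 7.15%, only in 1 of the 2 Mlxipl promoters. The wider E-box CANNTG, of which CACGTG is a case, occurs in 72.3% of all promoters and in those of Fasn and Thrsp, and not in those of Acly and Elovl6. Members not shown did not keep to these contrasts. The Acaca promoter holds 0 CCAAT boxes and that of Acacb 1, though both genes were highest in diabetes 2. The 3 Srebf1 promoters hold 1, 0 and 1 CCAAT boxes and 2, 1 and 2 wider E-boxes. These matches describe letters and not sites.

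Whether the pathway differed with curcumin was read from the treated against the untreated diabetic libraries. Fasn averaged 210 ± 45.1 CPM with curcumin and 1120 ± 1109 CPM in diabetes, Scd1 619 ± 648 and 11981 ± 16638 CPM, Acacb 6.75 ± 5.65 and 37.9 ± 44.1 CPM, and Mlxipl 15.6 ± 13.7 and 41.7 ± 13.4 CPM (SD, n = 2 each). None of the 10 members passed an adjusted p of 0.05 in edgeR's quasi-likelihood test, where 0% of all genes did, and 0 had an unadjusted p under 0.05, where 1.24% of all genes did. DESeq2 and limma-voom called 0 members as well. Fitted log2 fold changes were negative for 9 of 10 members (median −1.38, against 0.05 over all genes) and for 14370 of 29855 genes tested. Both curcumin-treated libraries lay below both diabetic ones for 3 members, Fasn, Scd2 and Mlxipl. Over all genes 9.72% lay lower without overlap and 17.9% higher, and 0 members lay higher. With TMM-scaled levels 2 members lay lower, since Scd2 then overlapped (944 CPM in curcumin-treated 2, 845 CPM in diabetes 1), where 9.96% of all genes lay lower and 18.1% higher.

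The fitted value was −2.51 (SE 1.19) for Fasn, with an adjusted p of 1 in edgeR, as for every member. Among the other synthetic enzymes it was −1.38 (SE 0.97) for Acly, −0.94 (SE 0.77) for Acaca and −2.64 (SE 1.34) for Acacb. For the modifying enzymes it was −4.46 (SE 2.59) for Scd1, −0.44 (SE 0.95) for Scd2 and 0.01 (SE 1.25) for Elovl6. The regulators were at −1.39 (SE 0.89) for Mlxipl, −0.07 (SE 0.71) for Srebf1 and −2.58 (SE 2.11) for Thrsp.

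Several values depended on 1 library. With diabetes 2 left out, log2 fold changes were −0.60 for Fasn, 0.37 for Acaca, 0.04 for Acacb, 1.52 for Scd1, 3.17 for Thrsp and −0.80 for Elovl6, while Acly stood at −1.99. Without diabetes 1 Acly was at −0.29, Elovl6 at 2.06 and Srebf1 at 0.16. Without curcumin-treated 1 Srebf1 was at 0.23, and Mlxipl at −0.65. Without curcumin-treated 2 Elovl6 was at −1.82, Mlxipl at −2.98 and Scd2 at −1.04. The sign of Elovl6 also turned with other scalings, at −0.04 with RLE size factors and −0.13 with library totals. With no low-count filter Fasn was the only member called (log2 fold change −2.46, SE 0.63, adjusted p = 0.0289 in edgeR). In that setting 216 of 53895 genes were called.

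Single pairs of libraries, 1 from each group, give values without a replicate. The pairs below were picked by their markers after the data were seen, and they join libraries of different number. Between curcumin-treated 1 and diabetes 2, the libraries with the most adipocyte markers, the log2 ratio of CPM was −2.98 for Fasn, −4.46 for Scd1, −2.51 for Thrsp, −2.68 for Acacb, −3.12 for Mlxipl and −0.58 for Acly. Between curcumin-treated 2 and diabetes 1, both rich in epididymal markers, it was −0.91 for Fasn, −0.43 for Scd1, 0.65 for Thrsp, −1.28 for Acacb, −0.35 for Mlxipl and −1.82 for Acly. Fasn, Acly, Acacb, Scd1, Scd2, Srebf1 and Mlxipl were negative in both pairs, with Scd2 at −0.97 and −0.04 and Srebf1 at −0.02 and −0.17. With TMM scaling the second pair turned for both, to 944 against 845 CPM for Scd2 and 265 against 259 CPM for Srebf1. The share of all genes that were negative in both pairs was not computed. Acaca (−1.47 and 0.24), Elovl6 (0.46 and −0.22) and Thrsp had opposite signs. Neither pair was alike in all markers. Adipocyte markers took 0.582% of curcumin-treated 1 and 5.28% of diabetes 2, smooth muscle markers 4.94% and 0.112%, and epididymal markers 0.602% and 3.55e-05%. In the second pair, adipocyte markers took 0.0304% of curcumin-treated 2 and 0.0240% of diabetes 1, and epididymal markers 11.5% and 7.60%. Macrophage markers took 0.0393% and 0.0186% of them, and skeletal muscle markers 0.0111% and 0.000853%. If libraries are paired by number instead, Fasn, Scd2 and Mlxipl were lower with curcumin in both pairs. Scd1 (1078 against 217 CPM) and Acacb (10.7 against 6.72 CPM) were then higher in curcumin-treated 1 than in diabetes 1. Acly (284 against 269 CPM) and Srebf1 (242 against 176 CPM) were higher in curcumin-treated 2 than in diabetes 2.

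**Figure D4:**
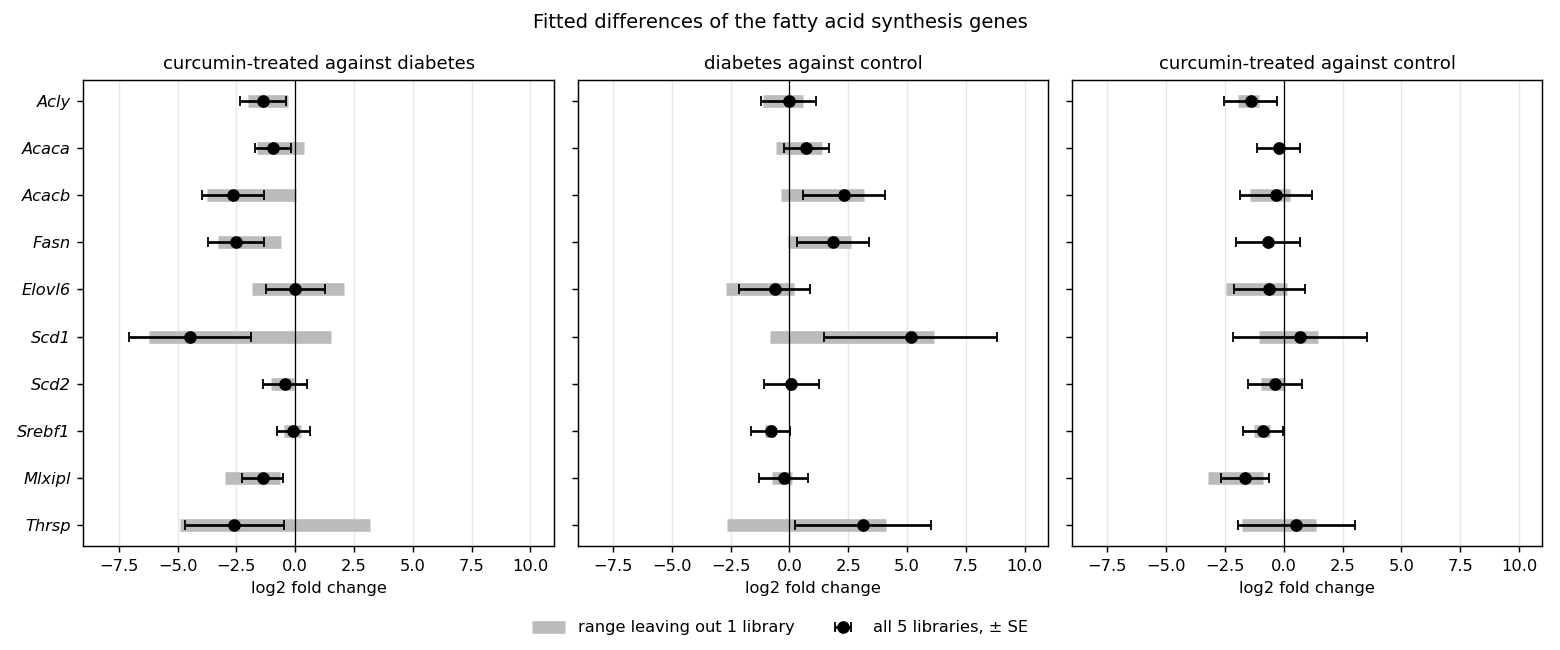
Fitted log2 fold changes of the members in the 3 comparisons, with points for the fit to all 5 libraries, bars for the standard error and grey bands for the range when 1 library is left out. No member passed the threshold, and the band of Thrsp for curcumin-treated against diabetes runs from −4.91 to 3.17.

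Untreated diabetic libraries were then set against control 1. Again 0 of 10 members passed in edgeR (0% of all genes), 0 had an unadjusted p under 0.05 (0.402% of all genes), and DESeq2 and limma-voom called 0. The median log2 fold change was 0.40 over the members and 0.07 over all genes. Scd1 averaged 11981 ± 16638 CPM in diabetes (SD, n = 2) against 400 CPM in control 1, at a log2 fold change of 5.15 (SE 3.66). Thrsp was at 150 ± 208 CPM in diabetes against 20.4 CPM in control 1 (3.12, SE 2.89). Fasn, at 1120 ± 1109 CPM in diabetes against 363 CPM in control 1, had 1.85 (SE 1.52), and Acacb had 2.32 (SE 1.73). On the other side stood Srebf1, at 224 ± 67.6 CPM in diabetes against 426 CPM in control 1 (−0.80, SE 0.84), Elovl6 at −0.62 (SE 1.5) and Mlxipl at −0.25 (SE 1.06). The adjusted p was 1 in edgeR for each.

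Both diabetic libraries lay below the control for 3 members, Srebf1, Mlxipl and Scd2, and above it for 0, where 34.5% of all genes lay lower and 17.3% higher. With TMM-scaled levels 1 member did, Srebf1, where 30.9% of all genes lay lower and 20.2% higher. Of the 3, Srebf1 alone was clear of the control by more than counting error in both libraries, since Scd2 in diabetes 2 overlapped it and the interval of Mlxipl in diabetes 2 reached 54.0 CPM against a lower bound of 53.0 CPM in control 1. Fasn, Acaca, Acacb, Scd1 and Thrsp were above the control in diabetes 2 and below it in diabetes 1. Without diabetes 2 the fold change was −0.07 for Fasn, −0.59 for Acaca, −0.37 for Acacb, −0.84 for Scd1 and −2.64 for Thrsp, and Elovl6 was at 0.19 and Acly at 0.58. Without diabetes 1 Elovl6 was at −2.68, Acly at −1.12 and Mlxipl at 0.11. Scd2, at 0.08, turned to −0.08 with library totals.

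Curcumin-treated libraries were also set against the control. Of 10 members 0 passed in edgeR (0% of all genes), 0 had an unadjusted p under 0.05 (0.131% of all genes), and DESeq2 and limma-voom called 0. Both curcumin-treated libraries lay below control 1 for 7 members, Acly, Acaca, Fasn, Elovl6, Scd2, Srebf1 and Mlxipl, and above it for 0. Over all genes 34.0% lay lower and 24.6% higher. With TMM-scaled levels 5 members lay lower, since Elovl6 (245 CPM in curcumin-treated 2 against 218 CPM in control 1) and Scd2 (944 against 913 CPM) then overlapped, where 28.1% of all genes lay lower and 30.6% higher. The median log2 fold change of the members was −0.49, against 0.17 over all genes. Mlxipl had a log2 fold change of −1.63 (SE 1.03), Acly of −1.41 (SE 1.13), Srebf1 of −0.87 (SE 0.84) and Fasn of −0.66 (SE 1.35). Their adjusted p in edgeR was 1. Without curcumin-treated 1 the value was −0.90 for Mlxipl and −1.04 for Acly, and without curcumin-treated 2 it was −3.23 for Mlxipl. Scd1, Thrsp and Acacb had curcumin-treated 1 above the control and curcumin-treated 2 below it. The 3 comparisons are not independent, since each pair of them shares libraries.

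The enzymes that feed the pathway were taken as a list of 12 genes for acetyl-CoA and NADPH supply. In curcumin-treated against untreated diabetes 0 of 12 were called and the median was −1.14. Of the 12, 11 had a negative fold change, as did 14370 of 29855 genes tested. Diabetes 2 was the highest library for 11 of the 12, and the share of all genes highest there was not computed. For some it led by little over curcumin-treated 1, as for Mthfd1 (32.0 against 30.9 CPM) and Mdh1 (546 against 523 CPM). Acss2, which makes acetyl-CoA from acetate, was at 25.2 and 17.0 CPM with curcumin, at 16.8 and 137 CPM in the diabetes libraries, and at 21.5 CPM in control 1. G6pdx, the entry enzyme of the pentose phosphate pathway, was at 94.9 and 154 CPM with curcumin, at 178 and 549 CPM in diabetes, and at 165 CPM in control 1. Both curcumin-treated libraries were lower than the diabetic ones for G6pdx (log2 fold change −1.58, SE 0.91), as for 9.72% of all genes, and not for Acss2 (−1.97, SE 1.07). Me1, the cytosolic malic enzyme that yields NADPH, was at 59.3 and 10 CPM with curcumin, at 10.5 and 406 CPM in diabetes, and at 12.5 CPM in control 1. Aldh1l1, a folate enzyme, was at 20.0 and 1.67 CPM with curcumin, 1.89 and 272 CPM in diabetes and 4.33 CPM in control 1. In diabetes against control 0 of 12 were called and 11 were positive (median 1.22), where 52.4% of all genes were positive. Me1 was at 4.30 (SE 2.65) and Aldh1l1 at 5.23 (SE 3.44). In curcumin-treated against control 0 were called and 10 were positive (median 0.30), where 57.3% of all genes were positive. Idh1 was at 1.77 (SE 1.90), Me1 at 1.54 (SE 2.25) and Taldo1 at 0.66 (SE 1.06). Acly, which hands acetyl-CoA to the same pathway, did not share the high level of Acss2, G6pdx, Me1 and Aldh1l1 in diabetes 2.

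Of 16 other elongation and desaturation enzymes, 0 were called in any comparison. The median log2 fold change was −0.26 in curcumin-treated against diabetes, 0.79 in diabetes against control and 0.19 in curcumin-treated against control. Hsd17b12, the ketoacyl-CoA reductase of elongation, was at 48.0 and 32.6 CPM with curcumin, at 77.6 and 235 CPM in diabetes, and at 62.9 CPM in control 1 (curcumin-treated against diabetes −2.03, SE 0.78, unadjusted p = 0.0440 and adjusted p = 1 in edgeR). Both curcumin-treated libraries lay below the other 3, and 9.72% of all genes lay below both diabetic ones without overlap. Fads3, a desaturase family member, was at 71.5 and 47.3 CPM with curcumin, 59.8 and 604 CPM in diabetes and 66.7 CPM in control 1. Scd3, a further desaturase paralog, was at 3.06 and 1.41 CPM with curcumin, 5.82 and 14.8 CPM in diabetes and 5.07 CPM in control 1. Of its 150-base stretches 1.08% occur unchanged in Scd1, and of its 75-base stretches 3.25%. Diabetes 2 held 375 counts of Scd3 and 602628 of Scd1, and whether Scd1 reads were counted as Scd3 was not tested. Elovl3, an elongase of brown fat and skin, was at 0 in diabetes 1, which allows up to 0.118 CPM, and at most 1.54 CPM elsewhere. In curcumin-treated against control Hacd1, a dehydratase of elongation, had 2.59 (SE 2.41), with levels of 32.2 and 2.66 CPM under curcumin against 3.00 CPM in control 1, and the elongase Elovl1 had 0.77 (SE 1.10). In diabetes against control Hacd2, a paralog of Hacd1, was at 62.0 and 280 CPM in diabetes against 65.8 CPM in control 1 (1.59, SE 1.17).

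Of these 16 enzymes, 8 were highest and 6 lowest in diabetes 2. The following 3 of those 6 were picked after their values were seen, because diabetes 2 was their lowest library, as it was for Elovl6. Elovl2, an elongase of polyunsaturated fatty acids, was at 0.611 and 35.9 CPM with curcumin, at 59.8 and 0.158 CPM in diabetes, and at 48.2 CPM in control 1. Elovl4, an elongase of very long chains, was at 2.26 and 38.8 CPM with curcumin, at 31.5 and 0.552 CPM in diabetes, and at 51.9 CPM in control 1. Both were high in the 3 libraries rich in epididymal markers and under 1 CPM in diabetes 2. Fads2, the first desaturase of polyunsaturated fatty acid synthesis, was at 1049 and 295 CPM with curcumin, at 452 and 18.4 CPM in diabetes, and at 409 CPM in control 1, so that its lowest library was that with the most Scd1.

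Of 16 genes of SREBP processing and its partners, 0 were called in any comparison, and the medians were −0.13, 0.26 and 0.22 in the 3 comparisons. Diabetes 2 was the highest library for 7 of them and the lowest for 5. Insig1, the membrane anchor that holds SREBP in the endoplasmic reticulum and is itself an SREBP target, was at 38.6 and 62.9 CPM with curcumin, at 113 and 262 CPM in diabetes, and at 114 CPM in control 1. Both curcumin-treated libraries lay below the other 3 (curcumin-treated against diabetes −1.91, SE 0.77, unadjusted p = 0.0521 and adjusted p = 1 in edgeR). Of all genes, 9.72% lay lower in that comparison without overlap. Nr1h3, the oxysterol receptor LXR-alpha that induces Srebf1, was at 22.9 and 6.08 CPM with curcumin, at 10.8 and 129 CPM in diabetes, and at 6.66 CPM in control 1 (diabetes against control 3.63, SE 1.93). It was high where Srebf1 was not. Usf1, a factor that binds the Fasn promoter, was at 65.8 and 58.8 CPM with curcumin, 35.4 and 30.9 CPM in diabetes and 47.0 CPM in control 1. Its groups did not overlap (0.90, SE 0.50), and 17.9% of all genes lay higher with curcumin than in diabetes without overlap. Rxra, the LXR partner, was at 94.2 and 50.6 CPM with curcumin, 51.8 and 148 CPM in diabetes and 41.9 CPM in control 1, and Insig2, the second anchor, was at 60.2 CPM in diabetes 2 and 18.9 to 31.8 CPM in the other 4 libraries. Srebf2, picked after its values were seen, was at 168 and 199 CPM with curcumin, at 234 and 42.5 CPM in diabetes, and at 200 CPM in control 1.

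Of 12 brakes and modulators, chiefly subunits of AMP-activated protein kinase, which inhibits the carboxylases, 0 were called in any comparison, with medians of 0.32, 0.40 and 0.30. Diabetes 2 was the highest library for 4 of them and the lowest for 3. Prkab1, a regulatory subunit, was at 66.5 and 66.8 CPM with curcumin, at 48.0 and 20.0 CPM in diabetes, and at 88.8 CPM in control 1. Both groups were below the control, and curcumin-treated and diabetic libraries did not overlap (1.01, SE 0.59), where 17.9% of all genes lay higher without overlap. Prkag2, another subunit, was at 175 and 27.9 CPM with curcumin, 48.5 and 27.9 CPM in diabetes and 38.7 CPM in control 1. Prkag1 was at 34.8 and 33.7 CPM with curcumin, 19.5 and 21.9 CPM in diabetes and 39.7 CPM in control 1, and Prkab2 at 62.2 and 11.8 CPM with curcumin, 10.2 and 35.5 CPM in diabetes and 15.2 CPM in control 1. Prkaa2, the catalytic subunit abundant in muscle, was at 0 in diabetes 1, which allows 0.118 CPM, and was highest in curcumin-treated 1 at 23.8 CPM. Brca1, whose protein binds phosphorylated ACC1, was at 1.51 and 1.79 CPM with curcumin, 3.81 and 11.3 CPM in diabetes and 1.15 CPM in control 1. Mid1ip1, the paralog of Thrsp whose protein promotes carboxylase polymerisation, was picked after its values were seen. It was at 176 and 264 CPM with curcumin, at 313 and 20.3 CPM in diabetes, and at 347 CPM in control 1, so that diabetes 2 held the most Thrsp and the least Mid1ip1.

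**Figure D5:**
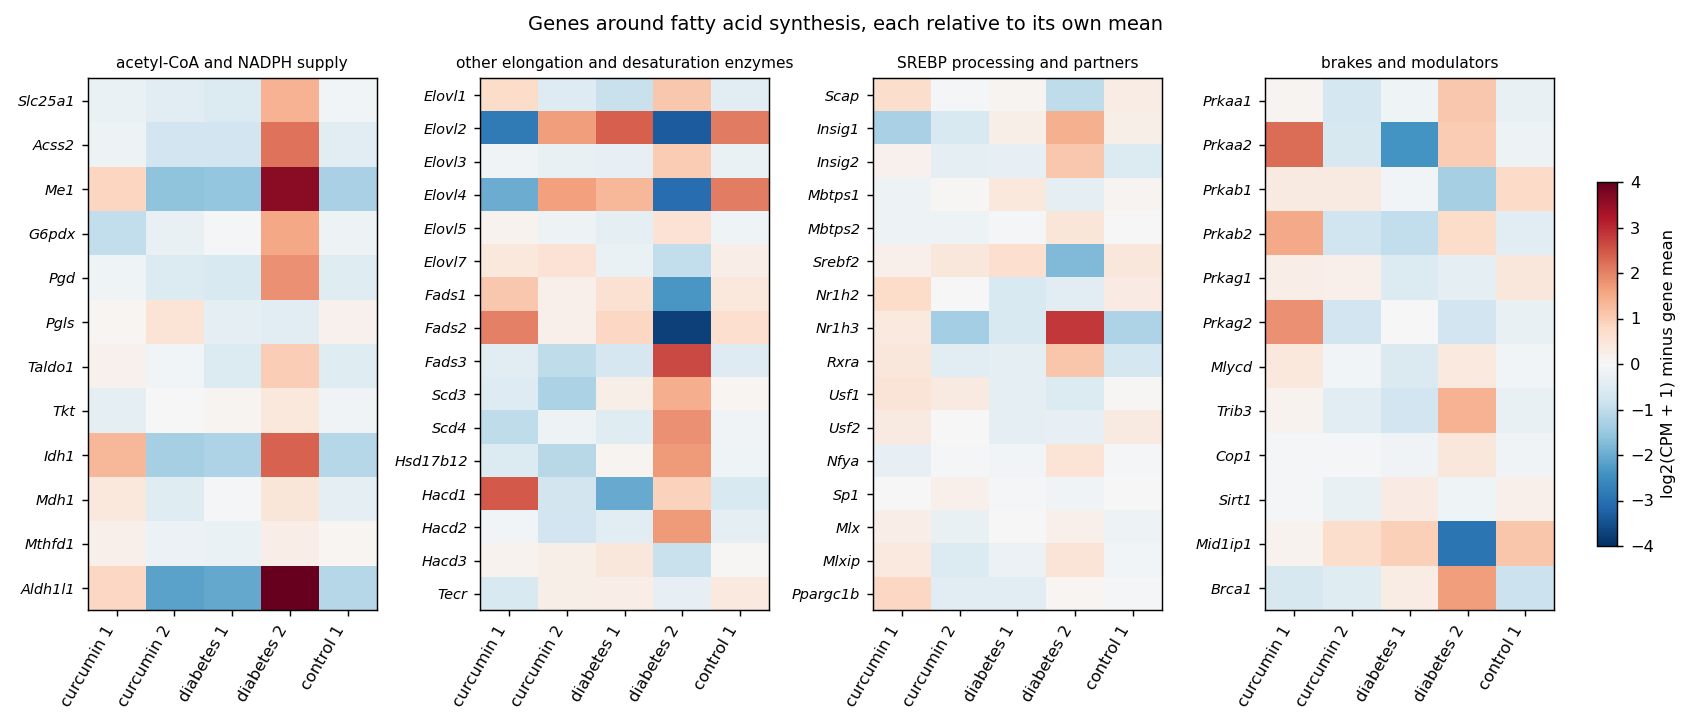
Each gene of 4 lists around fatty acid synthesis in the 5 libraries, as log2(CPM + 1) minus its own mean over the libraries, red for above and blue for below. Of the 12 supply genes 11 peak in diabetes 2, Mthfd1 and Mdh1 by little, while Elovl2, Elovl4, Fads2 and Mid1ip1 are lowest there.

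Among the 10833 other named genes with a mean of at least 10 CPM, those with a pattern over the 5 libraries most like that of Fasn were Cgnl1 and Ampd3 (Pearson r of 0.9991 each on the log2(CPM + 1) scale), Fam13a (0.9989), Rbl1 (0.9982) and Lgals3bp (0.9955). Cgnl1 was at 26.6 and 20.5 CPM with curcumin, at 36.5 and 207 CPM in diabetes, and at 37.6 CPM in control 1. An r above 0.95 was reached by 254 genes (2.34%), and all of these values rest on 5 libraries that differ in tissue markers.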

How the data were processed

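Libraries were poly-A selected, stranded and sequenced from both ends, per the labels' protocols. The deposited values are raw counts for each Ensembl gene. FastQC, featureCounts and GRCm39 appear in the submitters' processing notes. No aligner, annotation release or strand setting is given in these sources, and reads of overlapping antisense genes may not be separated. Symbols were matched by ID for 65.7% of 78334 genes. CPM uses library totals (25378046 to 42422890 counts); Poisson intervals and the limit of 3 counts for a 0 cover counting error only. Lengths are of the longest GENCODE M21 transcript.

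Genes passing filterByExpr were scaled by TMM and all 5 libraries fitted with edgeR 4.0.16's quasi-likelihood test (R 4.3.3, robust, older method, 2 residual degrees of freedom), two-sided, with Benjamini-Hochberg adjustment over 29855 genes. The lone control library is taken to vary as the other libraries do. Each standard error is the absolute fold change divided by the root of F. Alternatives used limma 3.58.1 and DESeq2 1.42.0. Members and lists were chosen with earlier results of these data known. All members are named, and from each list the 3 genes with the smallest p per comparison and genes at 0 in a library, unless stated. Genes named for a small p tend to lack overlap between the groups compared, so that lack is no separate evidence. Of 163 list genes 162 were found. Numbers were not taken as pairs. Same-numbered diabetic and curcumin-treated libraries did not deviate together (r = −0.41 over genes). This r cannot decide on pairing, because epididymal markers were high in diabetes 1 and in curcumin-treated 2, which differ in number.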

Additional observations from a re-analysis of the deposited data

How the results depend on the processing

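Over all genes, curcumin-treated against diabetes gave 0 calls, 0 with other scalings, a 10-count filter, limma-voom, the newer quasi-likelihood method or without other-tissue markers, 216 with no filter, 95 with DESeq2, and 0 to 43 without 1 library (43 without curcumin-treated 2). Diabetes against control gave 0, with 2 without a filter, 58 with DESeq2 and 0 with any 1 library left out; curcumin-treated against control gave 0, with 13, 77 and 0 to 5 (5 without curcumin-treated 2). Members called were 0 throughout, except 1 (Fasn) in curcumin-treated against diabetes with no filter. The replicate block, for numbers not known to pair the libraries, gave 0 calls in each comparison. It turned Acaca to −0.06, Acly to 0.08 and Scd2 to −0.26 in diabetes against control. A crossed pairing, chosen after seeing the data, gave 46, 13 and 7 calls. Of 400 member fold changes under the alternatives other than the crossed pairing, 32 turned sign. In curcumin-treated against diabetes Elovl6 was −0.04 with RLE, −0.13 with library totals, −0.02 with the 10-count filter and −0.04 with DESeq2; Scd2 was −0.08 with library totals in diabetes against control, and Thrsp −0.31 with limma-voom in curcumin-treated against control. Library totals moved the median gene of the last comparison to 0.03, against 0.17 with TMM, and TMM moved a level by 0.925 to 1.10 times. On that scale, an alternative added after seeing the data, members lying lower without overlap numbered 2, 1 and 5 in the 3 comparisons, against 3, 3 and 7.

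Leaving out 1 library, curcumin-treated against diabetes ran from −1.61 to 0.37 for Acaca, −3.77 to 0.04 for Acacb, −6.22 to 1.52 for Scd1, −1.82 to 2.06 for Elovl6, −0.47 to 0.23 for Srebf1 and −4.91 to 3.17 for Thrsp. Diabetes against control ran from −0.07 to 2.63 for Fasn, −0.59 to 1.39 for Acaca, −0.37 to 3.19 for Acacb, −1.12 to 0.58 for Acly, −0.84 to 6.13 for Scd1, −0.11 to 0.24 for Scd2, −2.68 to 0.19 for Elovl6, −0.75 to 0.11 for Mlxipl and −2.64 to 4.10 for Thrsp. Curcumin-treated against control ran from −1.45 to 0.28 for Acacb, −1.07 to 1.44 for Scd1, −0.96 to 0.04 for Scd2, −2.45 to 0.16 for Elovl6 and −1.79 to 1.37 for Thrsp. The cause of these turns was not tested. Groups of 1 or 2 libraries limit every comparison, and genes with few counts, such as Hsd17b8 with at most 19, are limited by depth as well.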

Other observations

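Mitochondria hold a separate fatty acid synthesis pathway that makes the precursor of lipoic acid. Of its 10 genes 0 were called in any comparison, and the median log2 fold change was −0.12 in curcumin-treated against diabetes, 0.55 in diabetes against control and 0.35 in curcumin-treated against control. Oxsm, its condensing enzyme, was at 6.94 and 4.55 CPM with curcumin, at 15.6 and 28.4 CPM in diabetes, and at 6.85 CPM in control 1, so that both diabetic libraries lay above the other 3 (curcumin-treated against diabetes −2.0, SE 0.78, unadjusted p = 0.0469 and adjusted p = 1 in edgeR). Of all genes, 9.72% lay lower with curcumin than in diabetes without overlap. Mecr, its enoyl reductase, was at 44.1 and 22.9 CPM with curcumin, at 19.6 and 90.4 CPM in diabetes, and at 22.1 CPM in control 1. Lias, the lipoic acid synthetase, was at 49.5 and 21.0 CPM with curcumin, at 26.8 and 44.6 CPM in diabetes, and at 25.6 CPM in control 1. Hsd17b8 was at 0 in diabetes 1 and control 1 and at most 0.683 CPM elsewhere.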
